A study of Homo sapiens with 15 samples.

Results

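The mRNAs of 10 core stress granule proteins were followed through condensates formed in U2OS cell extract. The genes were G3BP1, G3BP2, CAPRIN1, USP10, UBAP2L, TIA1, TIAL1, PABPC1, ATXN2 and FMR1. They were chosen by name, from what their proteins do, with earlier results of these libraries known, and are 10 of the 57500 genes counted. All 10 passed the filter on low counts, with 348 to 111147 counts per library.

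U2OS is a human osteosarcoma cell line, labelled wild type here. Its cytosolic extract was incubated for 2 h in a translation reaction with 250 nM dsRNA, with 2 µg/ml silvestrol, with 1% PEG, or untreated (mock), and the condensates were collected by centrifugation. Input was the same kind of extract without pelleting, and no incubation time is given for it. dsRNA is a double-stranded RNA, silvestrol blocks the helicase eIF4A and thereby translation initiation, and PEG is a polymer that crowds the solution. Poly(A)-selected RNA was sequenced from 3 biological replicates of each of the 5 groups, 15 libraries in all. The study's text names condensates of YFP-G3BP1 while the labels give wild type cells, so reads of a G3BP1 transgene could fall on the G3BP1 gene, and this was not tested.

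Stress granules are cytoplasmic assemblies of stalled initiation complexes, mRNA and RNA-binding proteins that appear when translation initiation fails. G3BP1 and its paralog G3BP2 are the RNA-binding scaffolds that nucleate them. Their partners tune that assembly, CAPRIN1 and UBAP2L in its favour and USP10 against it. TIA1 and TIAL1 are RNA-binding proteins with prion-like domains, PABPC1 is the cytoplasmic poly(A)-binding protein, ATXN2 binds PABPC1, and FMR1 encodes the translational repressor FMRP. What is measured here is the mRNA of these proteins, not the proteins.

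Total counts per library ran from 15341973 to 46939993, and the PEG libraries had the lowest totals of the pellets. Of 5 mesenchymal markers, RUNX2, VIM, SPARC and THY1 were present in every library and COL1A2 had at most 10 counts. Their summed level was 2749 to 3037 CPM in the PEG pellets and 1577 to 2464 CPM in the other groups, and its part in the results for PEG was not tested. Markers of the hepatocyte line also used in the study were at or near 0, with 0 counts of APOB and FGB. The blood marker PTPRC had at most 19 counts. The epithelial marker EPCAM was present in every library at a low level, with 166 to 498 counts (5.16 to 14.3 CPM). Levels are given as CPM, counts scaled to a common library size, after adjustment of all 15 libraries by the trimmed mean of M values (TMM). A level in a pellet is a share of the poly(A) RNA in that pellet, so less of an mRNA and more of all others cannot be told apart.

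G3BP1 lies on chromosome 5 (GRCh38, 151771045 to 151812785, plus strand), with 12406 bases of annotated exons. Its paralog G3BP2 lies on chromosome 4 (75642782 to 75724525, minus strand), with 7183 bases of exons. Both messages begin with closely related coding sequence, shown here because their counts are compared throughout. These are the first 90 coding bases in GENCODE 29, 5′ to 3′ in the sense of the mRNA, and capitals mark the bases that differ between them.

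G3BP1: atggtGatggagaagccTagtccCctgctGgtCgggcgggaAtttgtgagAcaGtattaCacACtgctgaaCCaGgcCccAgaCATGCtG
G3BP2: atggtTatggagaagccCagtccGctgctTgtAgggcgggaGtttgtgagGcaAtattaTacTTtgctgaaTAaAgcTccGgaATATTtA

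Of these 90 bases, 22 differ, 17 of them at the last base of a codon, so that 18 of 30 codons are written differently. The longest run shared by the full transcripts is tatgttcacaatgatat, 17 bases that start at coding base 373 in both, and no window of 30 bases occurs in both. TIA1 and TIAL1 share a run of 28 bases at most and also no window of 30. Whole reads from the transcripts compared can therefore be placed apart by their letters. Exons outside the transcript chosen for each gene were not compared. The G3BP1 pseudogene held 0.153% as many counts as G3BP1, and 13 PABPC1 pseudogenes together 0.018% as many as PABPC1.

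The other partners lie on chromosome 11 (CAPRIN1, 34051683 to 34101156), chromosome 16 (USP10, 84699978 to 84779922) and chromosome 1 (UBAP2L, 154220179 to 154271510). TIA1 lies on chromosome 2 (70209444 to 70248660) and TIAL1 on chromosome 10 (119571802 to 119597029). PABPC1 lies on chromosome 8 (100685816 to 100722809), ATXN2 on chromosome 12 (111452214 to 111599676) and FMR1 on the X chromosome (147911951 to 147951125). The counts cover all exons of a gene. The 10 genes had a median of 7.43 kb of exons against 4.43 kb over the 16612 genes kept, and a median GC content of 44.2% against 49.6%.

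In input, PABPC1 was the most abundant message per length, at 449 ± 49.2 CPM per kilobase (SD, n = 3). CAPRIN1 followed at 38.2 ± 8.69, UBAP2L at 32.1 ± 3.95, G3BP1 at 27.8 ± 5.63, G3BP2 at 26.1 ± 5.53 and USP10 at 22.4 ± 5.65 CPM per kilobase. TIAL1 was at 12.6 ± 2.60, TIA1 at 10.6 ± 0.884, FMR1 at 5.78 ± 1.01 and ATXN2 at 4.76 ± 0.171 CPM per kilobase. From CAPRIN1 down to USP10 each gene overlapped its neighbour in this order, as did TIAL1 and TIA1, whereas PABPC1 stood clear of all others.

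Input replicate 1 stood apart: it held the highest CPM of all 15 libraries for 8 of the 10 genes, against 16.5% of all genes. Without it, the calls of the 10 genes against input, in the fit without a block, were the same for dsRNA, silvestrol and PEG, and USP10 was lost in mock.

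**Figure D1:**
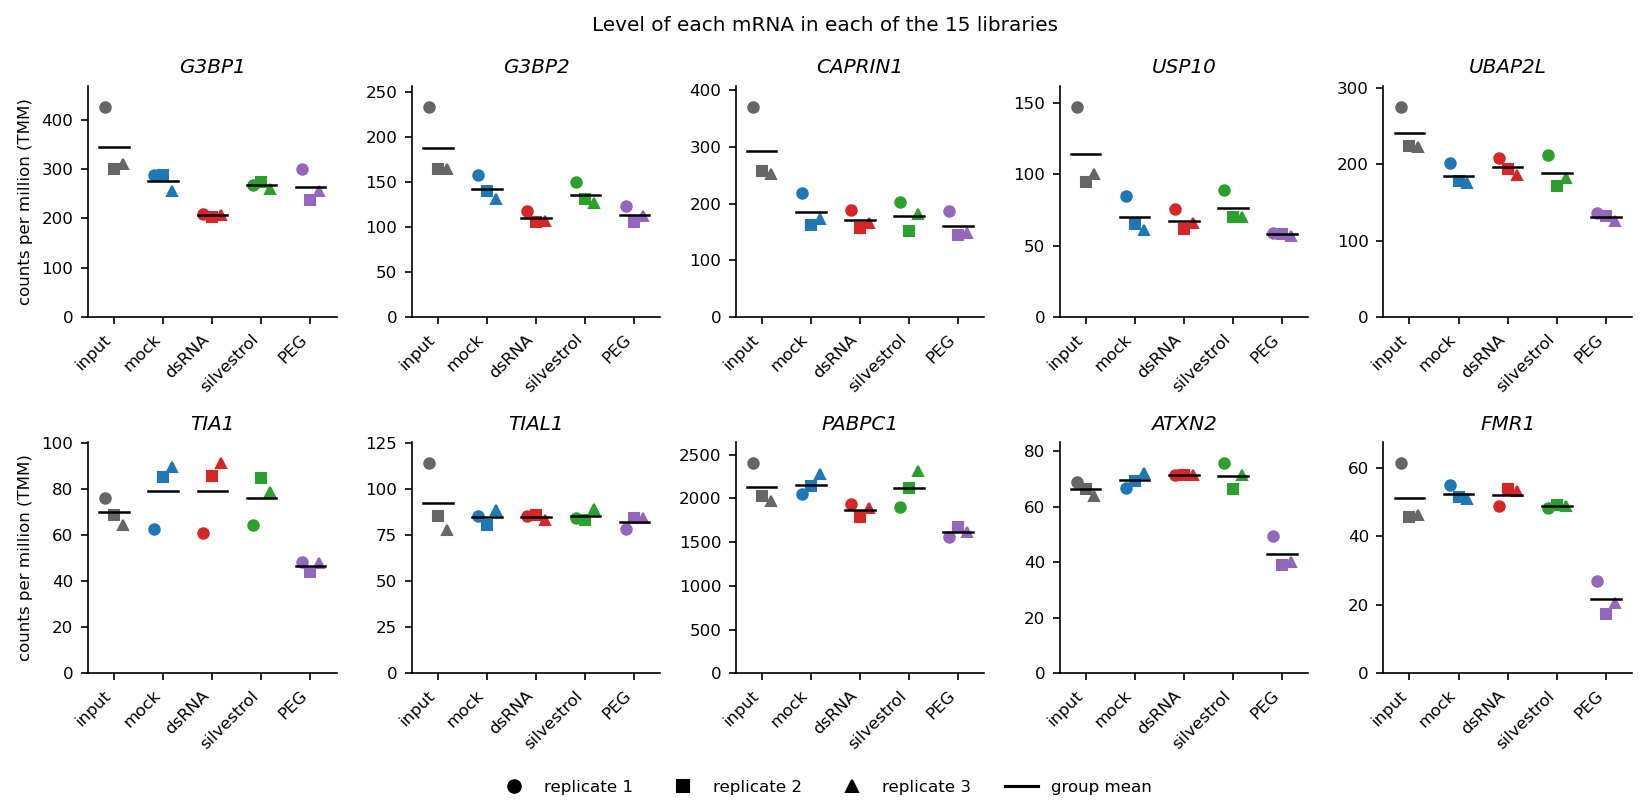
Level of each of the 10 mRNAs in CPM (TMM over all 15 libraries, linear axes from 0) in input and in the mock, dsRNA, silvestrol and PEG pellets. Symbols are the 3 replicates and bars the group means. The dsRNA libraries lie below every mock and silvestrol library for G3BP1 and G3BP2, and the PEG libraries lie lowest for TIA1, USP10, UBAP2L, PABPC1, ATXN2 and FMR1.

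The question put to these data was whether the lower G3BP1 mRNA in dsRNA pellets, already known from earlier analysis of these libraries, was shared by G3BP2 and the partners. G3BP2 was lower by a similar amount. The partners CAPRIN1, USP10 and UBAP2L, and TIA1, TIAL1, ATXN2 and FMR1, were within 0.12 of mock on the log2 scale, and PABPC1 lay between.

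G3BP1 stood at 209, 203 and 208 CPM in the dsRNA libraries (replicates 1 to 3). In mock it stood at 287, 287 and 255 CPM, and with silvestrol at 268, 275 and 260 CPM. All 3 dsRNA libraries lay below all 6 others, and the 3 differed little among themselves.

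G3BP2 stood at 118, 106 and 107 CPM with dsRNA. In mock it stood at 158, 140 and 131 CPM, and with silvestrol at 150, 131 and 126 CPM. Again no dsRNA library reached the lowest of the other 6. Replicate 1 was the highest of its group for G3BP2 in each of the 3 pellets.

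Against mock, the log2 fold change was -0.42 ± 0.10 (SE) for G3BP1 and -0.38 ± 0.11 for G3BP2 in the edgeR fit of 6 libraries. Neither passed the threshold of an adjusted p under 0.05 in that fit (edgeR quasi-likelihood test with Benjamini-Hochberg adjustment over all genes, adjusted p = 0.78 and 1.00, unadjusted p = 0.0032 and 0.0090). No gene did: 0 of 16612 genes were called in either direction, 0.0% each, with 374 genes at an unadjusted p under 0.05 and 64 lower by DESeq2.

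Libraries with the same replicate number deviated from their group means together, with replicate 1 set apart from 2 and 3. The fit was therefore also made with the replicate number as a block. The labels state no pairing, and these deviations do not settle whether replicates 2 and 3 are matched between groups. With the block, 2 of the 10 genes were lower with dsRNA than in mock, against 2.65% of all genes, and they were G3BP1 (-0.42 ± 0.06, edgeR adjusted p = 5.5e-06) and G3BP2 (-0.37 ± 0.06, edgeR adjusted p = 6.5e-05). As G3BP1 was known to be lower in these libraries, what the count adds is G3BP2, 1 of the other 9. No gene of the 10 was higher, against 0.15% of all genes. Within replicate numbers 1, 2 and 3, G3BP1 differed from mock by -0.46, -0.50 and -0.30 and G3BP2 by -0.42, -0.40 and -0.29 on the log2 scale.

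The comparison with silvestrol, which uses the same dsRNA libraries, gave -0.37 ± 0.08 for G3BP1 and -0.30 ± 0.10 for G3BP2 without the block, where again 0.0% of all genes were called in either direction (330 genes at an unadjusted p under 0.05, 68 lower by DESeq2). With the block, 2 of the 10 genes were lower against 2.49% of all genes, again G3BP1 (-0.37 ± 0.05, edgeR adjusted p = 1.2e-05) and G3BP2 (-0.30 ± 0.05, edgeR adjusted p = 3.5e-04). Here too G3BP1 was known to be lower in the dsRNA libraries, so the count adds only G3BP2. No gene of the 10 was higher, against 0.235% of all genes. DESeq2 without the block called G3BP1 alone among the 10, in both comparisons. ATOX1, whose annotation overlaps 130 bases of the G3BP1 exons on the other strand, stood at 45.3 ± 6.05 CPM in mock, 45.2 ± 4.25 with dsRNA and 44.7 ± 3.35 with silvestrol.

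**Figure D2:**
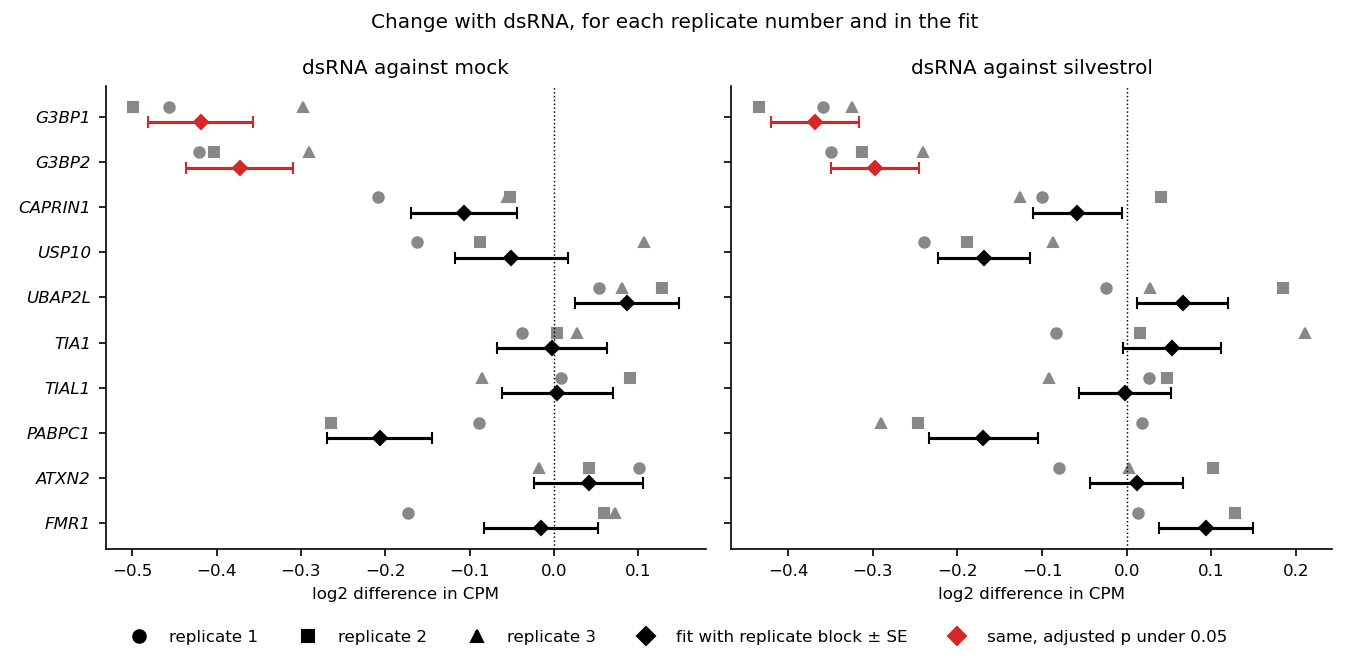
Log2 difference in CPM between dsRNA and mock (left) and between dsRNA and silvestrol (right) for each of the 10 mRNAs. Grey symbols are the differences within replicate numbers 1 to 3, and diamonds are the edgeR fit with the replicate block ± SE, red where the adjusted p was under 0.05. G3BP1 and G3BP2 lie between -0.24 and -0.50 in all 3 replicate numbers of both comparisons. PABPC1 reaches -0.26 in replicates 2 and 3 against mock and -0.29 against silvestrol, and USP10 reaches -0.24 against silvestrol.

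PABPC1, the poly(A)-binding protein that coats the tails of the selected RNA, stood at 1930, 1783 and 1894 CPM with dsRNA and at 2051, 2141 and 2275 CPM in mock. These groups did not overlap, but with silvestrol replicate 1 stood at 1906 CPM, inside the dsRNA range. Its log2 fold change against mock was -0.21 ± 0.11 and did not pass in edgeR, with or without the block (adjusted p = 1.00 and 0.060). In all, 3 of the 10 genes, G3BP1 among them, had every dsRNA library below every mock library, against 4.44% of all genes. For 2 of 10, G3BP1 again among them, every dsRNA library lay below every silvestrol library, against 3.7%. None of the 10 lay wholly above mock (2.17% of all genes) or silvestrol (1.79%).

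The partners that bind the G3BP proteins did not pass in either fit. CAPRIN1 stood at 190, 157 and 166 CPM with dsRNA against 219, 163 and 172 CPM in mock. USP10 stood at 75.6, 61.4 and 65.9 CPM against 84.5, 65.2 and 61.2 CPM, and UBAP2L at 209, 194 and 186 CPM against 201, 178 and 176 CPM. Replicate 1 was the highest of the 3 for all 3 genes in both groups, and the groups overlapped for each. Their log2 fold changes were -0.12 ± 0.14, -0.06 ± 0.15 and 0.09 ± 0.10.

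Within replicate numbers 1, 2 and 3, CAPRIN1 differed from mock by -0.21, -0.05 and -0.06, lower in each, but from silvestrol by -0.10, 0.04 and -0.13. USP10 was lower than silvestrol in each number (-0.24, -0.19 and -0.09) with a log2 fold change of -0.17 ± 0.12, as large as that of PABPC1 (-0.17 ± 0.13), and neither passed with the block (edgeR adjusted p = 0.12 and 0.24). Against mock USP10 differed by -0.16, -0.09 and 0.11, and UBAP2L was higher in each number (0.05, 0.13 and 0.08).

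TIA1 (79.1 ± 16.1 CPM with dsRNA, 79.0 ± 14.5 in mock) and TIAL1 (85.1 ± 1.33 and 84.9 ± 3.96 CPM) had nearly the same means in both groups. TIA1 was low in replicate 1 of mock, dsRNA and silvestrol alike, at 62.4, 60.8 and 64.4 CPM, where the other replicates held 78.7 to 91.1 CPM. ATXN2 (71.4 ± 0.115 and 69.4 ± 2.76 CPM) and FMR1 (51.9 ± 2.80 and 52.4 ± 2.22 CPM) also overlapped between dsRNA and mock. None of these 4 passed in edgeR with or without the block, and their log2 fold changes against mock were 0.00 ± 0.20, 0.00 ± 0.09, 0.04 ± 0.08 and -0.01 ± 0.09.

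A ratio of a pair of mRNAs within a library does not depend on how libraries are scaled. The log2 ratio of G3BP1 to each of the other 9 genes was therefore compared between the 3 dsRNA libraries and the 6 mock and silvestrol libraries by a two-sided exact permutation test. Its smallest possible p is 0.024, and p-values were adjusted over the 9 ratios. That test permutes the libraries freely and counts the 6 as separate. Same-numbered mock and silvestrol libraries deviated from their group means together (r = 0.85, 0.68 and 0.59), so they are not 6 independent replicates. Every ratio contains G3BP1, whose lower level in these same dsRNA libraries was known, so these p-values are not independent evidence of its difference.

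The ratio of G3BP1 to G3BP2, from counts per kilobase, stood at 0.04, 0.15 and 0.17 on the log2 scale with dsRNA. In mock it stood at 0.08, 0.25 and 0.17, and with silvestrol at 0.05, 0.28 and 0.25. The groups overlapped, and the difference of -0.06 ± 0.06 (SE) was within the spread (exact permutation test, adjusted p = 0.31). Within each replicate number the ratio was nonetheless lower with dsRNA than in mock and with silvestrol.

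G3BP1 was lower relative to UBAP2L (difference in log2 ratio -0.47 ± 0.07), and this ratio lay between -0.72 and -0.57 with dsRNA and between -0.39 and -0.03 in the other 6 libraries. The differences were -0.43 ± 0.06 relative to FMR1, -0.42 ± 0.05 relative to ATXN2, -0.39 ± 0.05 relative to TIAL1 and -0.31 ± 0.11 relative to CAPRIN1. For these 5 genes no dsRNA library overlapped the other 6 (exact permutation test, adjusted p = 0.043 for each). The ratios to TIA1 (-0.42 ± 0.22, adjusted exact permutation p = 0.13), USP10 (-0.29 ± 0.11, adjusted exact permutation p = 0.12) and PABPC1 (-0.21 ± 0.06, adjusted exact permutation p = 0.11) overlapped.

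With labels permuted only within replicate numbers (27 arrangements, exact), all 8 ratios other than that to G3BP2 reached an adjusted p of 0.042, and the ratio to G3BP2 had 0.074. Each of the 8 stood at the smallest p this test can give, 0.037 before adjustment. The adjusted value of each rests on the others standing there too, and all 8 share G3BP1, so they are not separate results. Against mock alone, 3 libraries against 3 cannot give an exact permutation p below 0.10. There, 6 of the 9 ratios did not overlap (adjusted exact permutation p = 0.15), those to TIAL1, CAPRIN1, USP10, UBAP2L, ATXN2 and FMR1. With any of the 9 libraries left out, none of the ratios of dsRNA against mock and silvestrol passed after adjustment, where the smallest exact permutation p possible was 0.036 or 0.071.

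**Figure D3:**
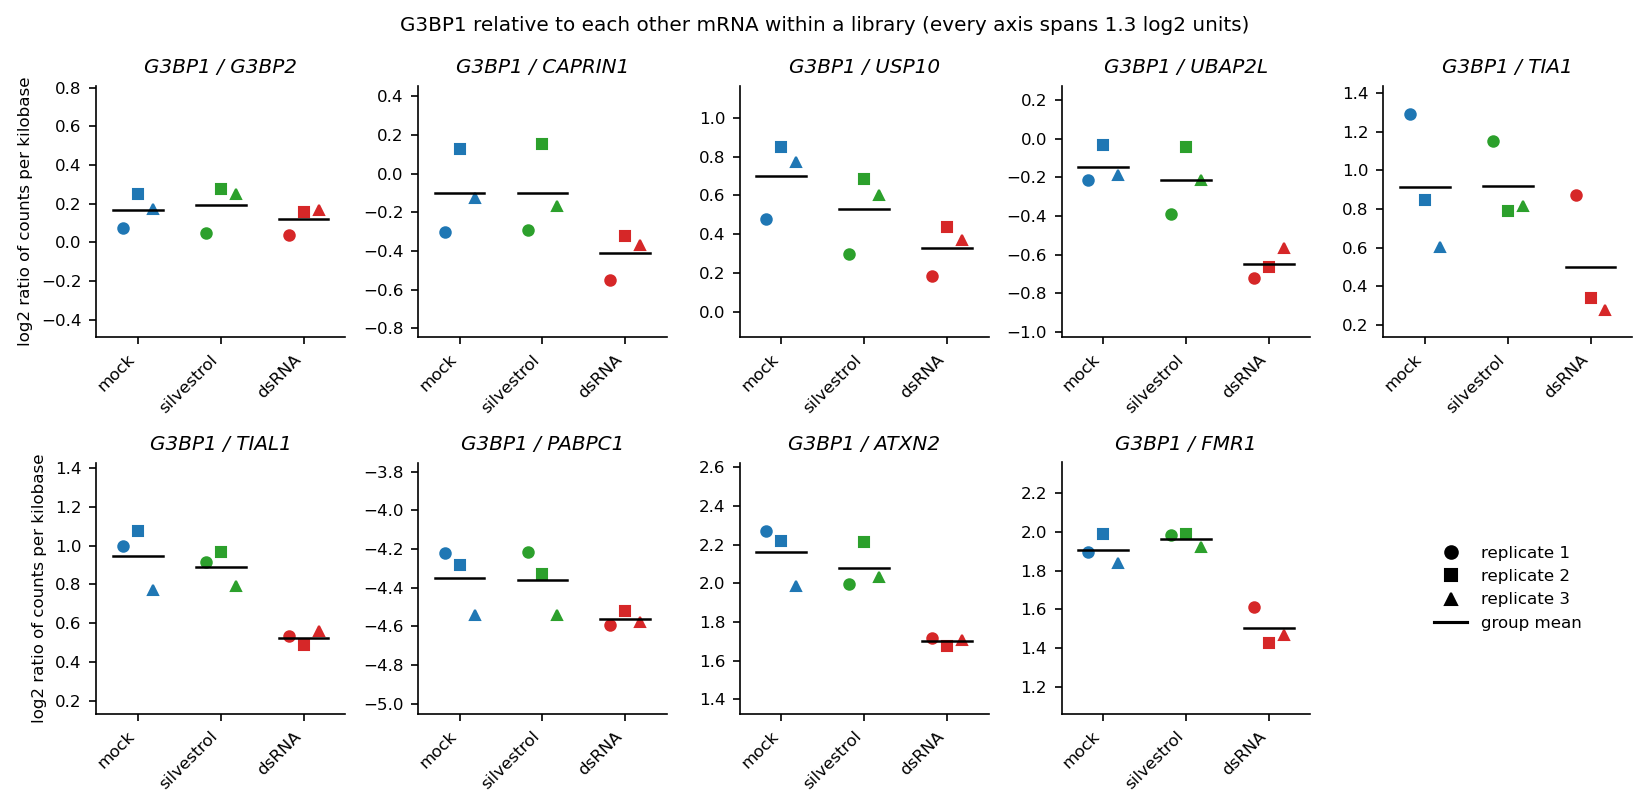
Log2 ratio of G3BP1 to each of the other 9 mRNAs, from counts per kilobase within a library, in the mock, silvestrol and dsRNA pellets. Symbols are replicates, bars are group means, and every vertical axis spans 1.3 log2 units. The dsRNA libraries overlap the others for G3BP2 and lie below them for TIAL1, CAPRIN1, UBAP2L, ATXN2 and FMR1.

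Silvestrol and mock pellets differed little in these mRNAs. G3BP1 had a log2 fold change of -0.05 ± 0.10 and G3BP2 of -0.07 ± 0.11 with silvestrol against mock. None of the 10 passed in edgeR, and their log2 fold changes ran from -0.11 to 0.12. Over all genes 0.0% were called in either direction (35 genes at an unadjusted p under 0.05, 0 by DESeq2), and with the block 0.012% were higher and 0.0% lower. FMR1 alone had every silvestrol library below every mock library, 1 of 10 against 1.85% of all genes, and 0 of 10 lay wholly above, against 1.57%.

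The same question was put to 6 paralogs of the partners that passed the filter and to 55 further genes of stress granule proteins. With dsRNA none of the paralogs FXR1, FXR2, ATXN2L, UBAP2, CAPRIN2 and PABPC4 passed in edgeR against mock, with or without the block, and their log2 fold changes ran from -0.03 (PABPC4) to 0.16 (FXR2). Of the 55 genes, none was called by edgeR without the block, where DESeq2 called EIF2AK2 in both dsRNA comparisons. With the block 2 of the 55 were lower and 0 higher in both dsRNA comparisons, a share near the 2.65% and 2.49% of all genes, and their median log2 fold change against mock was -0.02 beside 0.01 over all genes.

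These 2 genes, named after their values were seen, were EIF2AK2 and TARDBP. EIF2AK2 encodes PKR, the kinase that dsRNA activates and that arrests initiation by phosphorylating eIF2α. It stood at 95.0, 83.9 and 85.9 CPM with dsRNA. In mock it stood at 133, 126 and 125 CPM, and with silvestrol at 130, 117 and 116 CPM.

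No dsRNA library of EIF2AK2 overlapped those 6. Its log2 fold change was -0.54 ± 0.09 against mock and -0.45 ± 0.09 against silvestrol. With the block it was -0.54 ± 0.06 and -0.45 ± 0.05 (edgeR adjusted p = 2.7e-08 and 3.5e-07), and without it the edgeR adjusted p was 0.47 and 0.61.

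TARDBP, the gene of the RNA-binding protein TDP-43, stood at 211, 185 and 178 CPM with dsRNA and at 253, 216 and 206 CPM in mock. These groups overlapped, with each dsRNA library below the mock library of its number. Its log2 fold change with the block was -0.24 ± 0.06 against mock and -0.19 ± 0.05 against silvestrol (edgeR adjusted p = 0.017 and 0.029).

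The comparisons of the 4 pellets with input ask which of these mRNAs are a larger or smaller share of the pellets than of the extract. The pellets followed a 2 h reaction, and no such time is given for input. Differences from the reaction and from pelleting cannot be told apart here. They share the 3 input libraries. None of the 10 was higher than input in any pellet in the fit without the block, and CAPRIN1 was lower in all 4.

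In mock, 2 of the 10 genes were lower than input, against 15.8% of all genes, and 0 were higher, against 17.6%. These were CAPRIN1 (-0.63 ± 0.19, edgeR adjusted p = 0.0395) and USP10 (-0.66 ± 0.20, edgeR adjusted p = 0.041). CAPRIN1 stood at 371, 257 and 252 CPM in input, and USP10 at 147, 94.8 and 100.2 CPM. Replicate 1 was far above the others in both. USP10 was not called in edgeR without input replicate 1 or input replicate 3, and neither gene was without mock replicate 2 or mock replicate 3.

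In the dsRNA pellet, 4 of the 10 genes were lower, against 19.6% of all genes, and 0 were higher, against 21.1%. They were CAPRIN1 (-0.74 ± 0.18), G3BP2 (-0.73 ± 0.16), USP10 (-0.71 ± 0.19) and G3BP1 (-0.70 ± 0.16), with edgeR adjusted p-values of 0.013, 0.011, 0.018 and 0.011. In input G3BP1 stood at 425, 299 and 310 CPM and G3BP2 at 233, 164 and 164 CPM, all above every dsRNA library. Without dsRNA replicate 2 or dsRNA replicate 3 the count was 2 (G3BP1 and G3BP2), and without dsRNA replicate 1 TIA1 was called higher (0.38).

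In the silvestrol pellet, 1 of the 10 genes was lower, against 18.1% of all genes, and 0 were higher, against 19.4%. That gene was CAPRIN1 (-0.68 ± 0.19, edgeR adjusted p = 0.024). G3BP1 (-0.34 ± 0.16) and G3BP2 (-0.43 ± 0.17) did not pass. CAPRIN1 was not called without silvestrol replicate 2 or silvestrol replicate 3, and USP10 joined it without input replicate 2 or silvestrol replicate 1, a count of 2.

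With the replicate block, G3BP1, G3BP2, CAPRIN1, USP10 and UBAP2L were lower than input in mock, silvestrol and dsRNA pellets, 5 of the 10 in each, and 0 were higher. Of all genes, 30.1% were lower in mock, 29.1% with dsRNA and 28.7% with silvestrol in that fit, and 32.5%, 31.0% and 30.8% were higher. With the block G3BP1 had -0.27 ± 0.09 in mock, -0.32 ± 0.12 with silvestrol and -0.68 ± 0.12 with dsRNA, and G3BP2 had -0.34 ± 0.09, -0.42 ± 0.10 and -0.71 ± 0.11 (edgeR adjusted p = 0.017, 0.041 and 9.7e-04 for G3BP1 and 0.0018, 0.0048 and 5.5e-04 for G3BP2). In that fit the 5 lower genes are the scaffolds G3BP1 and G3BP2 and the partners named with them above. TIA1, TIAL1, PABPC1, ATXN2 and FMR1 did not pass there in these 3 pellets. Without the block only CAPRIN1 was called in all 3. With a GC offset added to the block, G3BP1 and G3BP2 were not called in mock or silvestrol.

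By single libraries, 5 of the 10 lay wholly below input in mock (26.0% of all genes), 6 with dsRNA (28.9%), 5 with silvestrol (27.8%) and 8 with PEG (33.0%). Wholly above input lay 0 in mock (24.1%), 1 with dsRNA, which was ATXN2 (26.3%), 0 with silvestrol (25.7%) and 0 with PEG (28.7%).

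The calls against input moved with a correction for GC content. With a GC offset in place of the block, none of the 10 was lower in mock or silvestrol, and with dsRNA only G3BP1 (-0.42) and G3BP2 (-0.45) were lower while TIA1 (0.46) and FMR1 (0.33) were higher. For dsRNA against mock the same offset left G3BP1 at -0.36 and G3BP2 at -0.31. With block and offset together, CAPRIN1, USP10 and UBAP2L were lower than input in mock and silvestrol, and TIA1, FMR1 and ATXN2 were higher. In the dsRNA pellet that fit called G3BP1 and G3BP2 lower as well, and TIAL1 also higher.

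**Figure D4:**
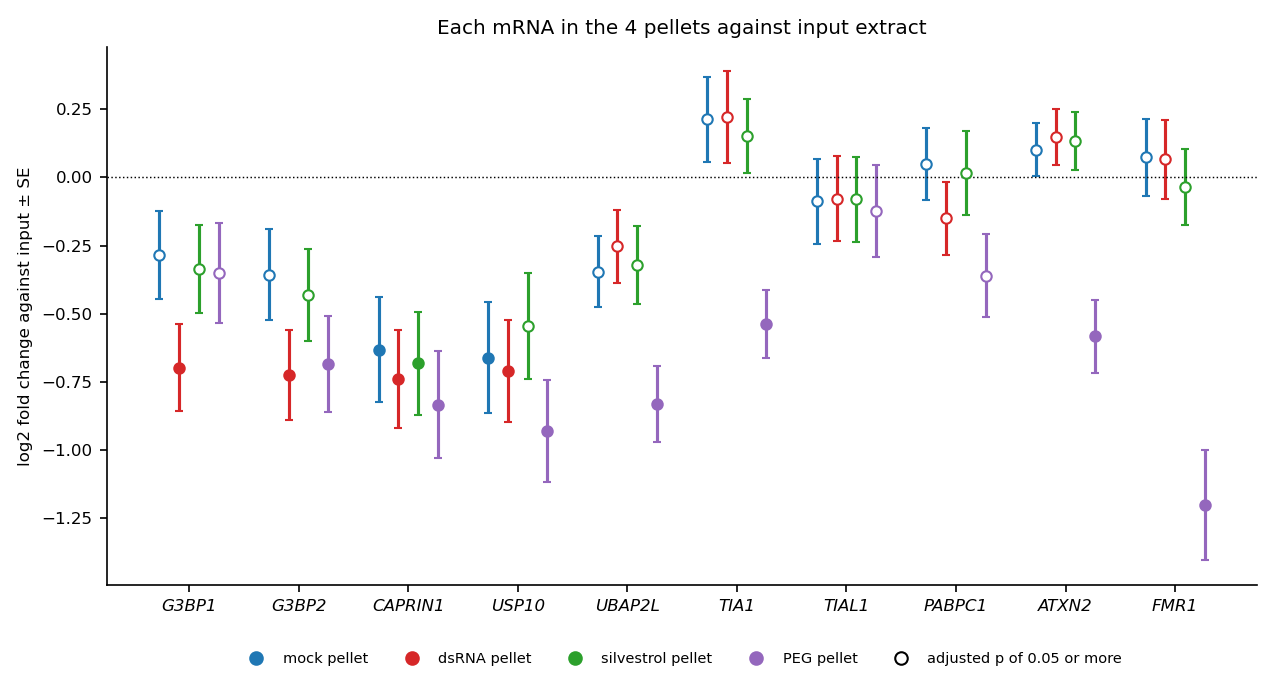
Log2 fold change ± SE of each of the 10 mRNAs in the mock, dsRNA, silvestrol and PEG pellets against input, from the edgeR fit of 6 libraries without the block. Filled points have an adjusted p under 0.05. The 4 pellets lie between -0.63 and -0.83 for CAPRIN1. The dsRNA pellet lies furthest below mock and silvestrol for G3BP1 and G3BP2, and is also below both for CAPRIN1, USP10 and PABPC1. PEG lies lowest for every gene except G3BP1 and G3BP2.

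More of these mRNAs were lower in the PEG pellet than in any other. In edgeR 7 of the 10 genes were lower than input, against 25.9% of all genes, and 0 were higher, against 25.5%. FMR1, at 26.8, 17.2 and 20.6 CPM with PEG against 61.3, 45.6 and 46.2 CPM in input, had the largest difference (-1.20 ± 0.20, edgeR adjusted p = 0.0015).

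It was followed by USP10 (-0.93 ± 0.19), CAPRIN1 (-0.83 ± 0.20), UBAP2L (-0.83 ± 0.14), G3BP2 (-0.68 ± 0.18), ATXN2 (-0.58 ± 0.13) and TIA1 (-0.54 ± 0.13). G3BP1 (-0.35 ± 0.18), PABPC1 (-0.36 ± 0.15) and TIAL1 (-0.12 ± 0.17) did not pass. The same 7 were called without each of the 6 libraries in turn. With the block G3BP1 was called as well (-0.33 ± 0.12, edgeR adjusted p = 0.047), 8 of the 10 against 27.8% of all genes, and 0 were higher, against 28.0%. Same-numbered input and PEG libraries correlated at 0.28, 0.20 and 0.13 in their deviations from the group means. TIA1 was not called with the GC offset (-0.18, edgeR adjusted p = 0.13). With block and offset together, neither G3BP1 nor TIA1 was called.

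Against mock, 5 of the 10 were lower with PEG, against 32.2% of all genes, and 0 were higher, against 31.3%. They were FMR1 (-1.21 ± 0.16), TIA1 (-0.68 ± 0.14), ATXN2 (-0.62 ± 0.13), UBAP2L (-0.42 ± 0.12) and PABPC1 (-0.34 ± 0.14), with edgeR adjusted p-values of 1.5e-04, 0.0019, 0.0018, 0.011 and 0.049. TIA1 stood at 48.3, 43.8 and 47.7 CPM with PEG and ATXN2 at 49.6, 39.0 and 40.2 CPM, below every library of the other 4 groups. PABPC1 was called without mock replicate 1 only among the 6 fits that leave out a library, and without PEG replicate 3 the count was 3 because UBAP2L was not called either.

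With the block the same 5 were lower, against 34.4% of all genes, and 0 higher, against 33.7%. By single libraries, 7 of the 10 had every PEG library below every mock library, against 37.6% of all genes, and 0 lay wholly above, against 32.0%.

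G3BP1 was at the level of mock with PEG (0.00 ± 0.13 on the log2 scale, 299, 236 and 254 CPM). G3BP2 stood at 123, 105 and 112 CPM, below every mock library (-0.26 ± 0.13, edgeR adjusted p = 0.10). With libraries scaled by total counts alone, all 10 genes were lower with PEG than in mock, G3BP1 by -0.46, while the median of all genes was at -0.49 under that scaling and at -0.03 under TMM. G3BP1 and TIAL1 thus lay near the median of all genes under either scaling.

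The paralogs of the partners were compared in the same way. ATXN2L, which has 12.5% of its exon bases under other genes, had -1.38 ± 0.18 with PEG against input and -1.30 ± 0.17 against mock (edgeR adjusted p = 5.2e-04 and 1.3e-04). The FMR1 paralog FXR1 was instead higher with PEG than in mock (0.58 ± 0.12, edgeR adjusted p = 0.0019), while FXR2 was lower (-0.99 ± 0.18, edgeR adjusted p = 9.0e-04). CAPRIN2 was lower with PEG against mock (-1.42 ± 0.15) and against input (-0.76 ± 0.13), and higher than input in mock (0.72 ± 0.15), with dsRNA (0.79 ± 0.15) and with silvestrol (0.68 ± 0.12).

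FXR2 was likewise higher than input in mock (0.67 ± 0.14), with dsRNA (0.84 ± 0.17) and with silvestrol (0.78 ± 0.15), and FXR1 lower (-0.42 ± 0.10, -0.40 ± 0.13 and -0.45 ± 0.14, edgeR adjusted p = 0.020, 0.045 and 0.033). The calls of FXR1 were lost in 4, 5 and 4 of the 6 fits that leave out a library. In mock and with silvestrol these were the fits without input replicate 2 or 3 or without replicate 2 or 3 of the pellet, and with dsRNA also that without input replicate 1. With the GC offset its value was -0.15 with dsRNA and its edgeR adjusted p was 0.17, 0.36 and 0.27. With PEG against mock FXR1 was not called under library size alone (0.11, edgeR adjusted p = 0.43), and CAPRIN2 in mock was not called without mock replicate 3. UBAP2 was lower than input with PEG (-0.46 ± 0.14). PABPC4 was called in no comparison without the block (0.16 ± 0.13 with PEG against mock). PABPC3 did not pass the filter.

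Among the 55 other stress granule genes, 7 were higher and 16 lower than input in mock, 9 and 20 with dsRNA, 7 and 20 with silvestrol, and 9 and 22 with PEG. Over all genes 17.6% were higher and 15.8% lower in mock, 21.1% and 19.6% with dsRNA, 19.4% and 18.1% with silvestrol, and 25.5% and 25.9% with PEG. With the block the counts were 13 and 25 in mock, 13 and 25 with dsRNA, 12 and 24 with silvestrol, and 9 and 24 with PEG. Single libraries moved them. In mock 3 or 4 were higher without input replicate 2 or 3 or mock replicate 3, and 7 lower without mock replicate 2 or 3. With silvestrol 4 were higher without input replicate 2 or 3, and 11 or 13 lower without silvestrol replicate 2 or 3. With PEG 14 were higher without input replicate 1 and 5 without input replicate 2 or 3 or PEG replicate 3.

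Their median log2 fold changes were -0.17, -0.19, -0.18 and -0.30, beside medians over all genes within 0.01 of 0. The members moved both ways. YBX1 (-1.62 ± 0.22 in mock, -1.60 ± 0.17 with dsRNA and -1.63 ± 0.18 with silvestrol), YBX3 (-1.21 ± 0.16, -1.20 ± 0.17 and -1.17 ± 0.20) and LSM12 (-1.06 ± 0.23, -1.10 ± 0.18 and -1.07 ± 0.18) had the smallest values among those called. YBX1 and YBX3 encode cold shock domain proteins that package mRNA.

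The largest were those of EIF3A, a subunit of the initiation factor eIF3 (0.92 ± 0.14, 1.04 ± 0.14 and 0.90 ± 0.15), and PRRC2C (0.85 ± 0.13, 0.94 ± 0.12 and 0.88 ± 0.12). Next came the helicase UPF1 in mock (0.80 ± 0.13) and with silvestrol (0.85 ± 0.15), and the scaffold EIF4G1 with dsRNA (0.90 ± 0.19). With a GC offset UPF1 was not called in mock or silvestrol and EIF4G1 not with dsRNA (edgeR adjusted p = 0.085, 0.093 and 0.053), and LSM12 in mock was not called without mock replicate 2 or 3.

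With PEG against mock, 18 of the 55 were higher and 19 lower, against 31.3% and 32.2% of all genes, with a median of 0.00. RACK1, a protein of the small ribosomal subunit (2.10 ± 0.21), YBX1 (1.44 ± 0.20) and HNRNPA1 (1.41 ± 0.19) were highest. PRRC2B (-1.78 ± 0.30), EIF3A (-1.61 ± 0.18) and PRRC2A (-1.54 ± 0.17) were lowest. With PEG against input the largest were RACK1 (1.29 ± 0.19), HNRNPA1 (0.88 ± 0.17) and EWSR1 (0.73 ± 0.12), and the smallest CPEB4 (-1.69 ± 0.24), PRRC2B (-1.43 ± 0.31) and IGF2BP2 (-1.35 ± 0.13).

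Over the 15 libraries, G3BP1 and G3BP2 varied together (Pearson r = 0.90 of log2 CPM). G3BP2 stood 9th among the 10925 genes with a mean log2 CPM of at least 3 in likeness to G3BP1. Among the genes most like G3BP1 were COX18 (0.93), TPX2 (0.92), CNOT11 (0.92) and HAUS2 (0.90). Those most like G3BP2 were POLR2D (0.98), RCAN3 (0.97), UBXN2A (0.97), PPP1CB (0.97) and IPO5 (0.97). USP10 (r = 0.92) and CAPRIN1 (r = 0.92) came 37th and 40th in likeness to G3BP2, ahead of G3BP1. TIA1 (-0.05) and ATXN2 (0.02) had the lowest values with G3BP1 among the 10. The 15 points share their groups, replicate numbers and scaling, so these values are a description.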

How the data were processed

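For 15 poly(A) RNA-seq libraries of U2OS extract and pellets, the deposited files hold raw counts per gene, which were not normalised. The submitters' processing notes name Trimmomatic 0.36, STAR 2.5.2b, featureCounts of Subread 1.5.2 and GRCh38. The strand setting and the treatment of reads with several hits are not given in the sources used here. Identifiers were matched to GENCODE 29, which held 56898 of the 57500.

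A gene was kept where 2 or more replicates of every group reached 10 counts (16612 genes). Each comparison was fitted on its 6 libraries with edgeR 4.0.16 in R 4.3.3 (TMM, quasi-likelihood F test, prior count 2), and p-values were adjusted over all genes kept by the Benjamini-Hochberg procedure, with a threshold of 0.05. DESeq2 1.42.0 was an alternative. The scripts were tested on simulated data. Ratios were compared by exact permutation tests.

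Replicate numbers came from the labels. Deviations from the group means correlated at 0.13 to 0.86 between same-numbered libraries of different groups (30 pairs) and at -0.75 to 0.58 between those with different numbers (60 pairs), where replicates 2 and 3 resembled each other. All 30 were over 0.1, so the numbers were treated as pairing, and the fit with the number as a block is given where it changed a call. As replicate 1 stood apart in each group, this does not settle whether replicates 2 and 3 are matched. Mock 3 correlated at 0.58 with input 2 and at 0.55 with input 3. Mock 2 correlated at 0.65 with dsRNA 2 and at 0.54 with dsRNA 3. The labels call the replicates biological and say no more, so p-values measure the spread between these libraries.

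The 10 genes, the gene lists and the tests were chosen with earlier results of these data known. Of the lists of other stress granule genes and P-body genes, up to 3 called genes with the largest and 3 with the smallest fold changes were named in each comparison. All paralogs were named, and for likeness the 5 genes with the highest Pearson correlation, of which 1 is not reported here. Alternatives were DESeq2 and its size factors in edgeR, scaling by library size, 2 other filters, a joint fit of the 5 groups, the block, an offset for each library's GC trend (span 0.3), the block with that offset, and each library left out. For ratios, an alternative added 10 counts to both genes. Library totals were 15341973 to 46939993 counts. Sequences are from GENCODE 29, from the transcript with the longest coding sequence of each gene. Protein sequences were not used here.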

Additional observations from a re-analysis of the deposited data

How the results depend on the processing

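In dsRNA against mock and against silvestrol, 1 of the 10 genes was lower with DESeq2, 2 with the replicate block and 2 with the block and a GC offset, and 0 in the other fits of all 6 libraries. The block gave 5 genes lower than input in mock and 5 with silvestrol. Permutation within replicate numbers brought the ratios of G3BP1 to TIA1 (-0.42), USP10 (-0.29) and PABPC1 (-0.21) past the threshold. Each stood at the smallest p that test can give, and all share G3BP1, already known to be lower. With all 5 groups in 1 fit, 4 were lower than input in mock and 5 with silvestrol. With a GC offset 0 were lower in mock, 0 with silvestrol and 2 with dsRNA, and 2 were higher with dsRNA and 1 with silvestrol. With the block and the GC offset 3 were higher in mock, 4 with dsRNA and 3 with silvestrol, and 3 were lower with silvestrol. With silvestrol against input DESeq2 called 2 lower, and the fit with no filter 3. With library size only, 10 were lower with PEG against mock. The cause of these changes was not tested.

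With a library left out, the genes lower than input numbered 0 to 2 in mock, 2 to 4 with dsRNA and 0 to 2 with silvestrol, those higher with dsRNA 0 to 1, and those lower with PEG against mock 3 to 5. No ratio of G3BP1 passed with a library left out, where fewer libraries leave fewer arrangements. The differences then ran from -0.42 to -0.36 for TIAL1, -0.36 to -0.24 for CAPRIN1, -0.51 to -0.43 for UBAP2L, -0.45 to -0.39 for ATXN2 and -0.49 to -0.40 for FMR1.

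Signs turned for values that had not passed in edgeR without the block. Of those with the other sign, G3BP1 and TIAL1 with PEG against mock were called lower under library size alone, and FMR1 with silvestrol and TIAL1 with dsRNA were called higher than input with the block and GC offset. For dsRNA against mock, log2 fold changes of the other sign were 0.041 for FMR1 with the GC offset and 0.041 with block and offset, -0.0030 (library size), -0.0022 (no filter), -0.00017 (filterByExpr) and -0.0025 (block) for TIA1, and -0.0031 (library size) and -0.00070 (no filter) for TIAL1. Against silvestrol they were 0.00021 (DESeq2), 0.00030 (its size factors), 0.0071 (GC offset) and 0.0064 (block and offset) for TIAL1. For PEG against mock, G3BP1 had -0.46 with library size, -0.074 with no filter, -0.071 in the joint fit, -0.0018 with the block, -0.028 with the GC offset and -0.030 with both, and TIAL1 had -0.43, -0.042 and -0.041 in the first 3 of these. For silvestrol against input, FMR1 had 0.022 (library size), 0.22 (GC offset) and 0.23 (block and offset), and PABPC1 had -0.019 (no filter), -0.011 (filterByExpr) and -0.014 (joint fit). With the GC offset, without and with the block, TIAL1 against input had 0.13 and 0.14 in mock, 0.20 and 0.20 with dsRNA, 0.18 and 0.19 with silvestrol, and 0.18 and 0.19 with PEG.

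With a library left out, further ranges spanned 0. For dsRNA against mock they were -0.20 to 0.020 (CAPRIN1), -0.15 to 0.089 (USP10), -0.15 to 0.16 (TIA1), -0.030 to 0.033 (TIAL1) and -0.050 to 0.034 (FMR1). Against silvestrol they were -0.16 to 0.029 (CAPRIN1), -0.048 to 0.23 (TIA1), -0.022 to 0.023 (TIAL1) and -0.025 to 0.048 (ATXN2). For PEG against mock they were -0.072 to 0.11 (G3BP1), -0.23 to 0.025 (CAPRIN1) and -0.0091 to 0.094 (TIAL1). Against input, FMR1 ran from -0.038 to 0.20 in mock, -0.035 to 0.21 with dsRNA and -0.15 to 0.097 with silvestrol, PABPC1 from -0.039 to 0.12 in mock and -0.071 to 0.091 with silvestrol, and TIAL1 from -0.23 to 0.071 in mock, -0.21 to 0.095 with dsRNA, -0.22 to 0.079 with silvestrol and -0.25 to 0.089 with PEG.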

Other observations

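Genes of P-body proteins, the mRNA decay and repression machinery that forms its own cytoplasmic granules, were not part of the comparisons above. Of 25 such genes, 3 were higher and 4 lower than input in mock, 5 and 4 with dsRNA, 4 and 4 with silvestrol, and 1 and 15 with PEG (edgeR, without the block). Over all genes 17.6% were higher and 15.8% lower in mock, 21.1% and 19.6% with dsRNA, 19.4% and 18.1% with silvestrol, and 25.5% and 25.9% with PEG. In mock 5 were higher without input replicate 1 and 1 without mock replicate 2 or 3, and 2 were lower without input replicate 2 and 1 without mock replicate 3. The number higher was 3 with dsRNA without input replicate 2, 2 with silvestrol without input replicate 2 or 3 or silvestrol replicate 2, and 2 with PEG without input replicate 1 or 2. With the block 5 were higher in mock and 3 with PEG. Against mock, 3 were higher and 15 lower with PEG, beside 31.3% and 32.2% of all genes, and none was called with dsRNA against mock or silvestrol, with or without the block. The median log2 fold change of the 25 was -0.64 with PEG against input and -0.52 against mock, beside -0.01 and -0.03 over all genes.

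EDC4, the scaffold of the decapping complex, was higher than input in mock (0.68 ± 0.12), with dsRNA (0.74 ± 0.16) and with silvestrol (0.78 ± 0.17), and lower with PEG (-1.93 ± 0.21 against input, -2.55 ± 0.22 against mock). The poly(A) nuclease subunit PAN2 was also higher than input in mock (0.76 ± 0.19), with dsRNA (0.74 ± 0.17) and with silvestrol (0.72 ± 0.17). So were EIF4ENIF1 in mock (0.45 ± 0.11) and with dsRNA (0.56 ± 0.11), and TNRC6C with silvestrol (0.50 ± 0.13). With a GC offset EDC4 was not called in mock, dsRNA or silvestrol (edgeR adjusted p = 0.15, 0.16 and 0.15). EIF4ENIF1 in mock was lost without input replicate 2 or 3 or mock replicate 2 or 3 and with no filter, and TNRC6C without input replicate 2 or 3. PAN2 was lost in mock and with silvestrol without replicate 2 or 3 of the pellet. LSM1 (-0.95 ± 0.17, -0.97 ± 0.15 and -1.02 ± 0.14), NBDY (-0.68 ± 0.14, -0.87 ± 0.13 and -0.76 ± 0.15) and DCP1B (-0.48 ± 0.11, -0.65 ± 0.13 and -0.65 ± 0.11) were lower than input in mock, dsRNA and silvestrol. In mock DCP1B was lost without input replicate 2 or mock replicate 3, and NBDY without mock replicate 3 or with the GC offset. With PEG against mock these 3 were higher, at 1.12 ± 0.16, 1.41 ± 0.14 and 0.89 ± 0.13. CNOT1, the scaffold of the deadenylase, was lower with PEG against input (-1.39 ± 0.17) and against mock (-1.22 ± 0.15). PATL1 was lower against input (edgeR adjusted p = 0.0012), where NBDY was higher (0.67 ± 0.14, not called under library size alone at 0.31), and ZFP36L2 was lower against mock (-0.99 ± 0.14).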
